A study of Homo sapiens with 14 samples.

Results

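The network collagens are the sheet-forming members of the collagen family, and 9 genes were followed here: the 6 type IV chains COL4A1 to COL4A6, the type VIII chains COL8A1 and COL8A2, and the type X chain COL10A1. They were taken by name, out of 19821 protein-coding genes annotated in GENCODE release 44 on GRCh37 (hg19). Every peak of 14 CUT&Tag lists that overlapped a gene body or the 20 kb on either side of it was assigned to that gene. The 9 windows merged into 6 stretches of DNA that covered 1.69 Mb, because the type IV genes lie in head-to-head pairs and the members of a pair share peaks.

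The cells were LX-2, an established human hepatic stellate cell line of wild-type genotype, kept for 2 days on a soft or on a stiff matrix. CUT&Tag uses an antibody to bring a transposase to its target, so that fragments are released where the target sits. The targets were phosphorylated JUN (p-JUN, an AP-1 transcription factor), H3K4me3 (found at active starts), H3K27ac (found at active starts and enhancers) and H3K27me3 (found at silenced genes). Each matrix had 2 libraries of every target but H3K27ac, which had 1 merged list per matrix and so no replicate. The p-JUN libraries labelled stiff carry a title abbreviation that the study uses for culture plastic, unlike the stiff libraries of the histone marks, so the p-JUN contrast is between libraries labelled soft and stiff. The study's methods call its sequencing replicates biological, but neither they nor the labels say which of these libraries came from separate cultures, so p-values measure the spread between these libraries, which may be technical. Per list there were 48163 to 54168 p-JUN peaks, 18096 to 18857 H3K4me3 peaks, 18238 (soft) and 13322 (stiff) H3K27ac peaks, and 19843 and 9228 (soft) against 7104 and 6974 (stiff) H3K27me3 peaks. As a check of the cell type, markers with H3K4me3 within 1 kb of a start site in all 4 libraries were counted. These were 6 of 12 stellate and myofibroblast markers (ACTA2, COL1A1, PDGFRB, TAGLN, TIMP1 and VIM). COL1A2, COL3A1, DES, DCN, LUM and LRAT lacked it. The same held for 0 of 5 hepatocyte markers with it, 1 of 3 endothelial (KDR), 1 of 4 leukocyte and macrophage (CD14) and 1 of 3 cholangiocyte markers (EPCAM). Over all protein-coding genes 62.8% had it, a larger share than in any of these lists, so the counts do not establish the cell type.

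Type IV collagen is the sheet-forming scaffold of basement membranes. Its chains join in fixed combinations: COL4A1 with COL4A2 in nearly all basement membranes, COL4A3 with COL4A4 and COL4A5 in kidney, lung and eye, and COL4A5 with COL4A6 in skin, smooth muscle and other sites. In the liver, activated stellate cells deposit type IV collagen along the sinusoids during fibrosis. COL8A1 and COL8A2 form the lattice of the membrane under the corneal endothelium and appear in remodelled vessel walls. COL10A1 is a marker of hypertrophic cartilage.

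Over the 9 windows together, p-JUN peaks numbered 55 and 49 on soft against 47 and 60 on stiff, a mean of 52.0 ± 4.24 (SD, n = 2) against 53.5 ± 9.19 (SD, n = 2). The groups overlapped, and the log2 ratio of stiff to soft was 0.04 (exact permutation test, two-sided, p = 1.0). H3K4me3 gave 13 and 16 peaks on soft against 14 and 17 on stiff (log2 ratio 0.10, exact permutation p = 0.667). H3K27ac gave 16 peaks on soft against 13 on stiff, a log2 ratio of -0.30 with an exact 95% binomial interval of -1.48 to 0.85 that covers counting error only. The soft H3K27ac list was itself longer, and with lists of equal length the peaks numbered 12 on soft against 13 on stiff, which turned the ratio to 0.12. H3K27me3 gave 6 and 3 peaks on soft against 2 and 1 on stiff (log2 ratio -1.58, exact permutation p = 0.333), in lists that were themselves longer on soft. With 2 libraries against 2 the exact test cannot go below 0.333, so none of these comparisons could pass 0.05.

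Peaks were spread unevenly over the family. COL4A2 held 22 and 23 p-JUN peaks on soft against 21 and 25 on stiff, and COL8A1 held 14 and 12 against 11 and 14. COL4A1 followed with 9 and 9 against 8 and 12, and COL4A6 with 7 and 4 against 5 and 7. The other 5 genes had at most 3 p-JUN peaks in any library. The windows held 2.78 to 3.55 p-JUN peaks per 100 kb, where the whole genome held 1.56 to 1.75. H3K27me3 was confined, among these windows, to the COL4A3 and COL4A4 pair and to a single peak at COL8A2.

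**Figure D1:**
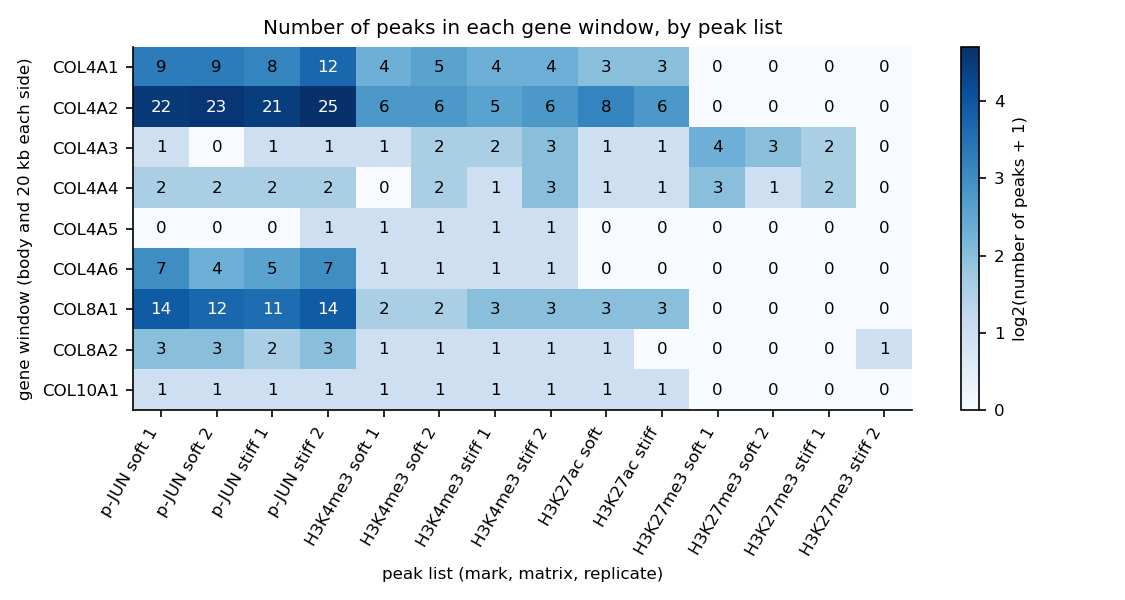
Number of peaks in the window of each of the 9 genes (rows) in each of the 14 peak lists (columns), with the count printed in each cell and the colour giving log2 of the count plus 1. COL4A2 has 21 to 25 p-JUN peaks in every library and COL8A1 11 to 14, whereas H3K27me3 is at 0 in all windows but those of COL4A3, COL4A4 and COL8A2.

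The start sites divided the family. H3K4me3 lay within 1 kb of a protein-coding start in all 4 libraries at 5 of the 9 genes: COL4A1, COL4A2, COL4A5, COL4A6 and COL8A1. Over all protein-coding genes 62.8% had it. COL4A3 and COL4A4 had weak H3K4me3 in 3 of 4 libraries, and COL8A2 and COL10A1 had none. H3K27ac was at the start of 0 of the 9 genes in either list, against 21.2% of all genes with it in both. p-JUN was at a start in all 4 libraries at COL8A1 alone (38.2% of all genes), and that count became 2 within 2 kb and 0 within 500 bp. H3K27me3 reached all 4 libraries at no start of the family (2.43% of all genes), although 3 of 4 libraries had it at the shared start of COL4A3 and COL4A4. The pattern of COL4A1 over all 14 lists, with H3K4me3 in 4 of 4 and p-JUN in 3 of 4, was matched by 401 other genes (2.02%), and that of COL8A1, with both in 4 of 4, by 1904 (9.61%).

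The stretches of GRCh37 between the paired starts are shown because the H3K4me3 peaks flank or cover them. They are chr13:110959505-110959630 between COL4A1 and COL4A2, chr2:228029170-228029339 between COL4A4 and COL4A3, and chrX:107682768-107683067, the 300 bp before COL4A5 on the COL4A6 side. All are given on the forward strand, from the gene on the reverse strand towards the gene on the forward strand. Capitals mark the letters CCAAT and GGGCGG on either strand.
COL4A1 and COL4A2: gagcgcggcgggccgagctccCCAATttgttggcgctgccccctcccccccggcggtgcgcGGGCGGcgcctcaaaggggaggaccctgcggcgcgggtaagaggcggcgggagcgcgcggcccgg
COL4A4 and COL4A3: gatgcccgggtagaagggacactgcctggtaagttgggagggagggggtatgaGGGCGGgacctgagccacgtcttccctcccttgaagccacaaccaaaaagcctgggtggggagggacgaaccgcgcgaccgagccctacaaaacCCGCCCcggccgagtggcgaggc
COL4A6 and COL4A5: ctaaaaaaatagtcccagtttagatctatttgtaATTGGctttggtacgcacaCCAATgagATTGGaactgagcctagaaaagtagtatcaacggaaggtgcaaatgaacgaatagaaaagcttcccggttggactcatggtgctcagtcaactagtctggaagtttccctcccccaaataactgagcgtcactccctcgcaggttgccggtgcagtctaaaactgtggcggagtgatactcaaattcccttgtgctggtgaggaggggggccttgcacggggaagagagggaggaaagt
The first stretch is 126 bp long with 80.2% G and C, the second 170 bp with 65.9%, and the third 300 bp with 48.3%. The first holds 1 CCAAT and 1 GGGCGG, the second 2 GGGCGG, and the third 3 CCAAT. Of the stretches of equal length before the starts of all 19821 genes, 24.1% at 126 bp and 37.8% at 300 bp hold a CCAAT, and 49.7% at 126 bp and 54.2% at 170 bp hold a GGGCGG. None of the 3 stretches holds the AP-1 letters TGACTCA or TGAGTCA, which 1.64% (126 bp), 2.17% (170 bp) and 3.59% (300 bp) of the stretches of all genes hold.

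**Figure D2:**
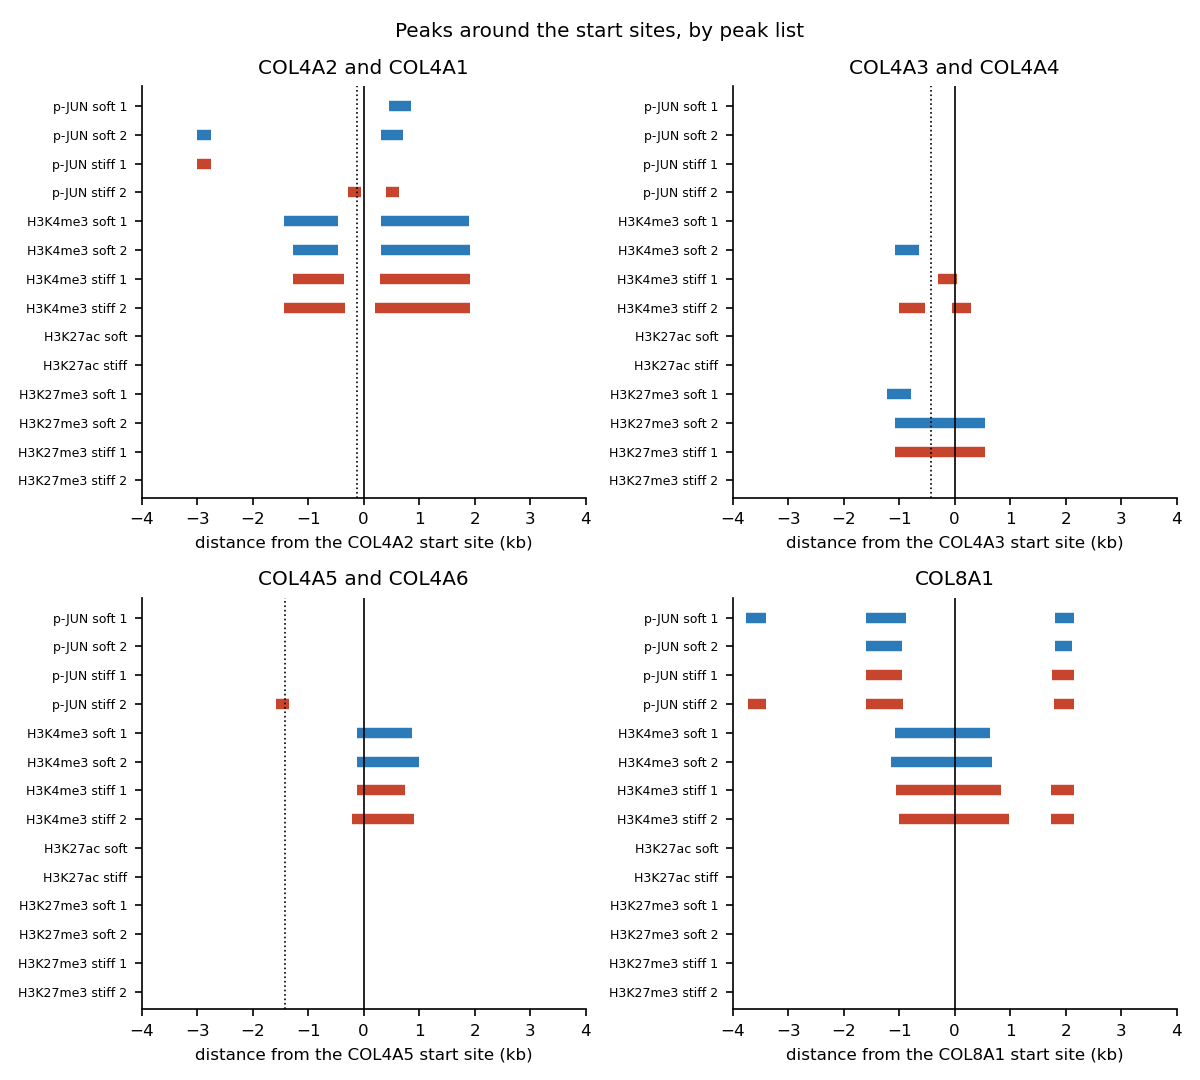
Peaks of the 14 lists within 4 kb of the start sites of 4 loci, drawn as bars in blue for soft and red for stiff, against the distance from the gene named on the x axis (solid line) with the start of its partner as a dotted line. H3K4me3 lies on both sides of the COL4A1 and COL4A2 starts in all 4 libraries with no peak between, and the H3K4me3 peak 2.01 kb past the COL8A1 start is in the 2 stiff lists only.

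At COL4A1 and COL4A2, which encode the chains of the common type IV network, H3K4me3 formed a peak on each side of the shared start. On the COL4A1 side (chr13:110958196-110959286) inside COL4A1 next to its start, the summit held 164 and 213 fragments on soft against 275 and 394 on stiff. After scaling by median ratios these were 214 and 223 against 281 and 281, with no overlap. The difference was 0.37 ± 0.09 (log2 stiff minus soft, SE, n = 2 per matrix; limma, Benjamini-Hochberg over 16098 shared regions, adjusted p = 0.0256). The call was lost without stiff replicate 1 (limma adjusted p = 0.0957), without stiff replicate 2 (0.126), with quantile normalization (0.0989) and with the deposited fold over local background, where the difference was 0.23 (limma adjusted p = 0.481). On the COL4A2 side (chr13:110959833-110961555) the scaled summits were 353 and 430 on soft against 375 and 435 on stiff, which overlapped (0.05 ± 0.10, limma adjusted p = 0.789). A weak p-JUN peak lay on the COL4A2 side in both soft libraries (53 and 53 fragments) and in stiff replicate 2 (48 fragments), and none was called there in stiff replicate 1.

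The p-JUN signal of the pair lay away from the starts. Of 35 p-JUN regions in the 2 windows, 21 were called in all 4 libraries, and 20 of these were inside a gene body. H3K27ac covered 7 of the 21 in both lists, 1 in COL4A1 and 6 in COL4A2, and H3K27me3 was called nowhere in either window. The highest COL4A1 region (chr13:110902661-110903777, intron, 56.46 kb past the start) had 336 and 343 summit fragments on soft against 261 and 347 on stiff, 13.6 to 16.1 times the local background. Its scaled difference of -0.18 ± 0.08 did not pass the test (limma adjusted p = 0.125). H3K27ac was called there at 6.38 times the background on soft against 7.25 times on stiff.

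The highest p-JUN summits of COL4A2, which on stiff were also the highest of the family, lay at chr13:110998897-111000644 in an intron 40.57 kb past the start, with 423 and 399 fragments on soft against 507 and 596 on stiff. Scaled, these were 395 and 429 against 541 and 552, with both stiff libraries above both soft ones. The difference was 0.41 ± 0.07 on the log2 scale (limma, Benjamini-Hochberg over 40433 shared regions, adjusted p = 3.86e-06), and the call held without each library in turn. The local background rose with it, from 44 and 38.1 fragments on soft to 51.4 and 58.7 on stiff. The deposited fold was 9.43 and 10.2 on soft, with both stiff values between them, and on that scale the difference was -0.03 (limma adjusted p = 0.947). H3K27ac was called in this region in both lists, at 5.87 (soft) and 5.19 (stiff) times the background.

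The remaining p-JUN calls in these windows were both lower on stiff. A region in the flank beyond the 3′ end of COL4A1 (chr13:110790090-110791252), which also carried H3K4me3 in all 4 libraries and no H3K27ac, had 232 and 197 fragments on soft against 157 and 178 on stiff. Its difference of -0.37 ± 0.10 (limma adjusted p = 0.00851) lost the call without soft replicate 1 (0.164), without soft replicate 2 (0.116) and with the deposited fold (-0.07, limma adjusted p = 0.876). A weak region in a COL4A2 intron (chr13:111133506-111134104) had 53 and 58 fragments on soft against 39 and 34 on stiff, a difference of -0.62 ± 0.20 (limma adjusted p = 0.0288). That call was lost without soft replicate 1 (0.0653), soft replicate 2 (0.404) or stiff replicate 2 (0.215) and with the deposited fold (-0.47, limma adjusted p = 0.419). The DNA at its summit is a tandem repeat: shifted by 30 bp against itself, the 101 bp around the summit matched at 95.8% of positions. How reads that map to several places were treated is not given in the sources used here, and the part of the repeat in this result was not tested.

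**Figure D3:**
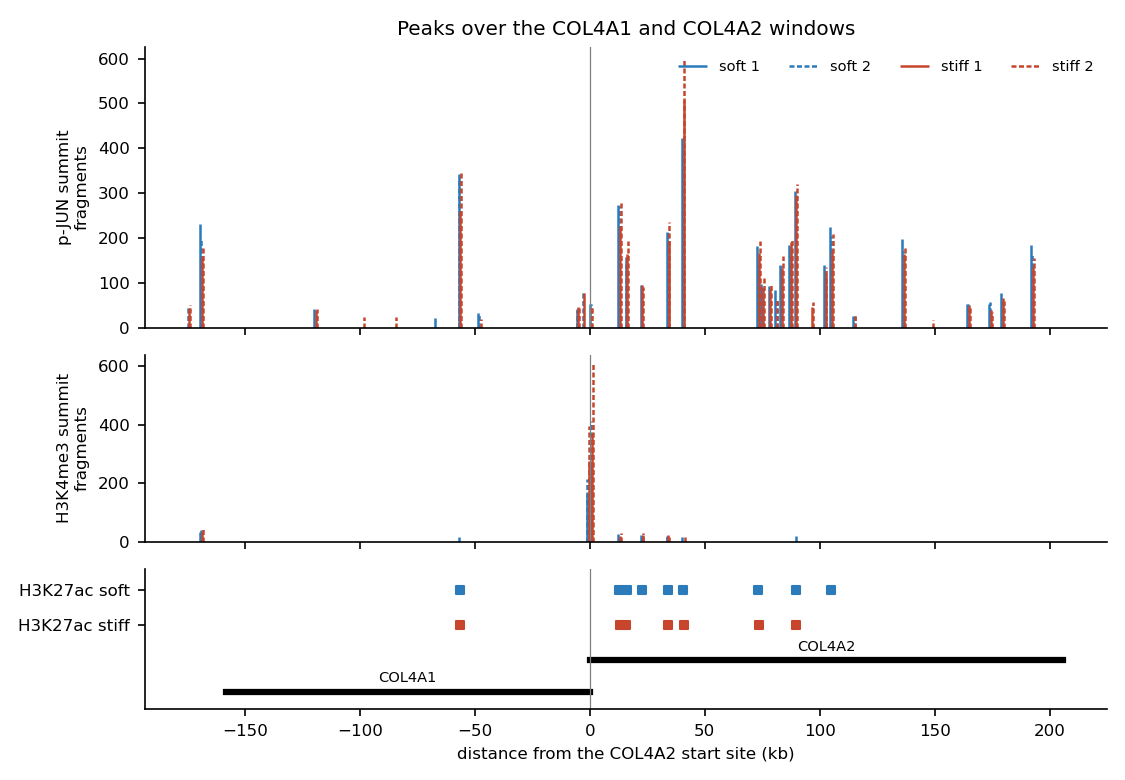
Peaks over the COL4A1 and COL4A2 windows against the distance from the COL4A2 start in kb (COL4A1 lies to the left). Upper panels give summit fragments of p-JUN and H3K4me3 peaks per library, unscaled and drawn side by side with small offsets, and the lower panel gives H3K27ac peaks as squares with the gene bodies as black bars. p-JUN and H3K27ac lie mostly in COL4A2 introns, with the tallest p-JUN summits at 40.57 kb, whereas the tall H3K4me3 peaks lie at the shared start.

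The sequence under these regions is shown for the strongest or called p-JUN summits, 50 bp on each side (GRCh37, forward strand), with the AP-1 letters TGACTCA or TGAGTCA, which are each other's reverse complement, in capitals. The windows are chr13:110790546-110790646, chr13:110902989-110903089, chr13:111000152-111000252 and chr13:111133882-111133982 in that order.
COL4A1 flank, lower on stiff: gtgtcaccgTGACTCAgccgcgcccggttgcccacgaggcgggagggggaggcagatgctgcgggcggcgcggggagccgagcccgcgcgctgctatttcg
COL4A1 intron, highest of the gene: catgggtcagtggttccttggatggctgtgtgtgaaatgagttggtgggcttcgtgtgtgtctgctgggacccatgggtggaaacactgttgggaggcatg
COL4A2 intron, higher on stiff: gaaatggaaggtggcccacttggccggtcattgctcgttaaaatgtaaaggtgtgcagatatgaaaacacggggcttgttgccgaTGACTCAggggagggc
COL4A2 intron, lower on stiff: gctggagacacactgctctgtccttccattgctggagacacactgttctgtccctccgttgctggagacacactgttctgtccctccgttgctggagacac
The COL4A2 region that rose has the motif centred 38 bp after its summit, the COL4A1 flank region has it 38 bp before, and the other pair has none in this window. In the last sequence the repeat can be read directly.

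One p-JUN region of the pair was called on stiff alone, in a COL4A2 intron (chr13:111055738-111056430), with 47 and 58 fragments in the stiff libraries. These were 3.27 and 3.84 times the local background. At the background of the nearest soft peaks, 6.01 kb away, a soft peak would have needed 72 fragments (replicate 1) and 64 (replicate 2). The stiff libraries held fewer. However, in both stiff libraries the local background at this region was well below that at the p-JUN region 6.01 kb away. No soft background was measured at the region itself. The 72 and 64 therefore cannot tell whether a soft peak could have been called there, and the missing soft calls are not shown to be a difference. H3K27ac was called on soft alone at 2 COL4A2 introns, chr13:110982451-110983028 with 21 fragments and chr13:111064530-111064824 with 33 fragments. At the background of the nearest stiff peak, a peak on stiff would have needed 23 fragments at the first and 28 at the second. The first held fewer than that on soft. However, the background was 5.49 fragments at that stiff peak, 7.08 kb away, against 3.54 on soft at the region. The 23 therefore cannot tell whether a stiff peak could have been called there. p-JUN was called in all 4 libraries at both of these H3K27ac regions.

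COL8A1, which encodes the more widely expressed type VIII chain, had the largest set of p-JUN regions after COL4A2. Of 15 regions in its window, 11 were called in all 4 libraries. H3K27ac covered 3 of the 11, and 1 of these was the start of the neighbouring gene CMSS1. The highest region (chr3:99377267-99378230, intron, 20.60 kb past the start) had 453 and 429 p-JUN fragments on soft against 393 and 483 on stiff, with overlapping scaled values (difference -0.03 ± 0.07, limma adjusted p = 0.84). H3K27ac was called there at 9.30 times the background on soft against 7.73 times on stiff, and H3K4me3 and H3K27me3 were not called.

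The COL8A1 start was covered by H3K4me3 in all 4 libraries (chr3:99356296-99358419). Its summits held 109 and 156 fragments on soft against 176 and 270 on stiff, or 142 and 163 against 180 and 193 after scaling, a difference of 0.29 ± 0.11 that did not pass the test (limma adjusted p = 0.131). A p-JUN region lay just upstream (chr3:99355831-99356559) with 209 and 168 fragments on soft against 181 and 216 on stiff (0.07, limma adjusted p = 0.718). No H3K27ac or H3K27me3 was called at this start.

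Of the 11 shared p-JUN regions of COL8A1, 1 passed the test. An intron region 136.15 kb past the start (chr3:99493367-99494038) did not, with a difference of 0.36 ± 0.15 (limma adjusted p = 0.0944). The region at the CMSS1 start did not either (-0.29 ± 0.12, limma adjusted p = 0.0843). The region that passed lay 2.01 kb past the start, in an intron. There p-JUN (chr3:99359199-99359581) had 90 and 81 fragments on soft against 124 and 112 on stiff, scaled to 84.0 and 87.1 against 132 and 104. The difference was 0.45 ± 0.14 on the log2 scale (limma adjusted p = 0.0202), with both stiff libraries above both soft ones. The deposited fold gave a like difference of 0.40, from 3.88 and 4.0 on soft to 5.66 and 5.0 on stiff, but no call over all regions (limma adjusted p = 0.466). The call was also lost with quantile normalization (limma adjusted p = 0.0678) and without soft replicate 1 (0.185), soft replicate 2 (0.129) or stiff replicate 1 (0.267), and in the last case the difference itself fell to 0.28.

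H3K4me3 was called at the same place on stiff alone (chr3:99359170-99359596), with 115 fragments in stiff replicate 1 and 148 in stiff replicate 2, or 3.43 and 3.25 times the local background, at −log10 q of 26.3 and 31.4. Neither soft library had a peak there. At the local background of the nearest soft peak, at the COL8A1 start about 2.00 kb away, a peak would have needed 45 fragments in soft replicate 1 and 56 in soft replicate 2, fewer than the stiff libraries held. In the stiff libraries the background at that start (32.9 and 44.9 fragments) was close to that at the region (32.9 and 44.8), whereas at the region itself no soft background was measured. The median summit of the whole lists was 120 and 141 fragments on soft against 151 and 207 on stiff, so summit fragments are not on 1 scale between these libraries. No other mark was called on one matrix alone at COL8A1.

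**Figure D4:**
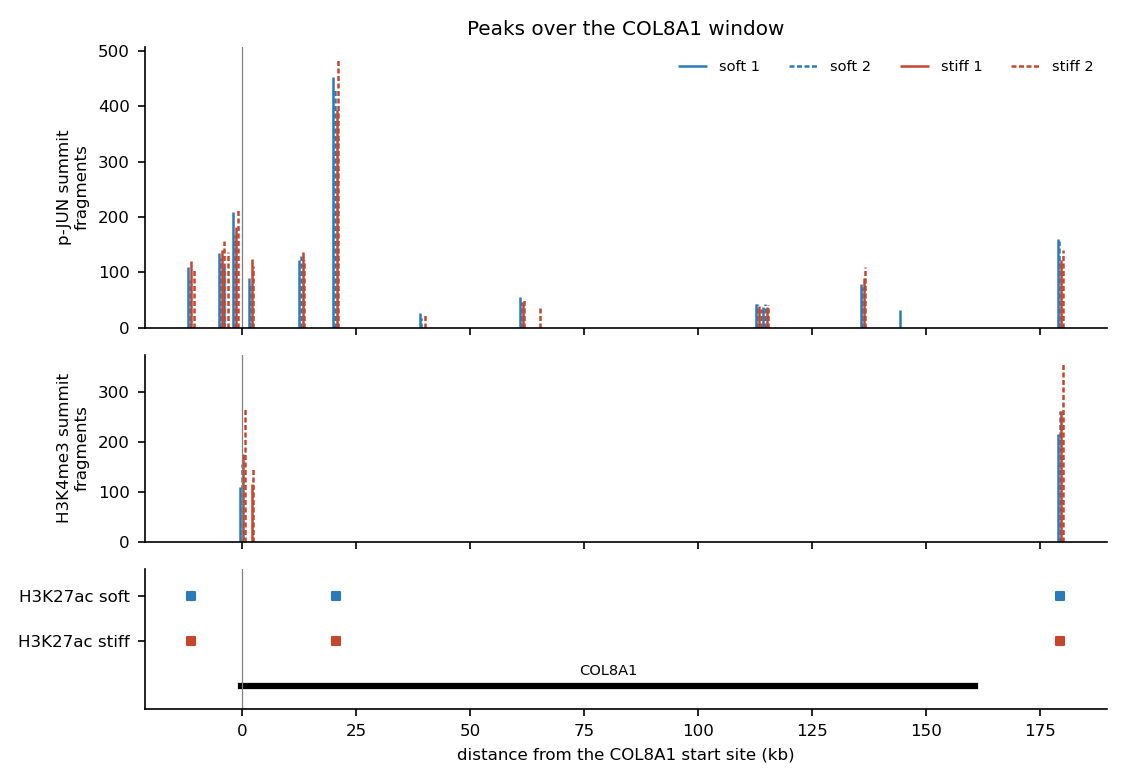
Peaks over the COL8A1 window against the distance from the COL8A1 start in kb, with summit fragments of p-JUN and H3K4me3 per library (unscaled, small offsets between libraries) and H3K27ac peaks as squares over the gene body. p-JUN is tallest at 20.60 kb with H3K27ac in both lists, the H3K4me3 peak 2.01 kb past the start appears for stiff libraries only, and the peaks at the far right belong to the CMSS1 start.

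The summit windows of 2 COL8A1 regions are chr3:99359399-99359499 for the one that passed the test and chr3:99377989-99378089 for the highest, again with the AP-1 letters in capitals.
COL8A1 intron, higher on stiff: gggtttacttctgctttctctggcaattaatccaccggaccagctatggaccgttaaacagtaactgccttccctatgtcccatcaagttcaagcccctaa
COL8A1 intron, highest of the gene: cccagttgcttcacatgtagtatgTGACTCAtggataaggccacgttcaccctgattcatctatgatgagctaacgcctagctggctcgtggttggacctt
The highest region has the motif centred 23 bp before its summit, and the region that passed the test has none in this window.

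At COL4A5 and COL4A6, on the X chromosome, a single H3K4me3 region (chrX:107682857-107684063) covered the COL4A5 start in all 4 libraries. It held 61 and 67 fragments on soft against 87 and 98 on stiff, with overlapping scaled values (0.08 ± 0.16, limma adjusted p = 0.814). It counts for COL4A6 too because a COL4A6 transcript begins within 1 kb of it. COL4A5 had no p-JUN peak in its body or flanks in 3 of 4 libraries, and neither H3K27ac nor H3K27me3 was called over the pair. In COL4A6 3 of 9 p-JUN regions were common to the 4 libraries, none of them with H3K27ac. By summit fragments the highest was an intron region 40.28 kb past the start (chrX:107641009-107641733). It had 120 and 108 fragments on soft against 110 and 107 on stiff (-0.08 ± 0.13, limma adjusted p = 0.746). No AP-1 letters lay within 50 bp of its summit. The region with the highest fold (chrX:107429980-107430738, overlapping a COL4A6 exon, 251.38 kb past the start) had 115 and 90 fragments on soft against 88 and 98 on stiff, 12.3 to 13.5 times the background (-0.14 ± 0.14, limma adjusted p = 0.552). Its summit window, chrX:107430227-107430327, holds the AP-1 letters 2 times.
COL4A6 exon region: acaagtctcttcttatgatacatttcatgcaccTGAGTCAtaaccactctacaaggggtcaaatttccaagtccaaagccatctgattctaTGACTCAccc
A COL4A6 intron region (chrX:107555302-107555635) was called on stiff alone, with 35 and 49 fragments, or 4.17 and 4.89 times the local background. At the background of the nearest soft peak, a peak would have needed 26 fragments in soft replicate 1 and 34 in soft replicate 2. That soft peak lay 2.86 kb away in replicate 1 and 84.4 kb away in replicate 2.

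COL4A3 and COL4A4, chains of the kidney, lung and eye network, had H3K4me3 and H3K27me3 at 1 place, both weak. An H3K27me3 region over the shared start (chr2:228028126-228029893) was called at 2.80 and 2.48 times the background on soft and at 2.65 times in stiff replicate 1, and not in stiff replicate 2. H3K27me3 was called at 2 COL4A3 regions on soft alone, at 3.40 and 2.82 (chr2:228092688-228093273) and 2.90 and 2.93 times the background (chr2:228111626-228112466). No H3K27me3 region of the family was shared by all 4 libraries, so none was tested for its level. H3K4me3 was called at the start (chr2:228029037-228029626) on stiff alone, with 25 and 20 fragments, 6.66 and 5.06 times the background. At the background of the nearest soft peak, a peak would have needed 52 fragments in soft replicate 1 and 14 in soft replicate 2. That soft peak lay 161 kb away in replicate 1 and 0.875 kb away in replicate 2. Its background was 22.8 fragments in replicate 1 and 2.21 in replicate 2, against 2.9 and 3.15 on stiff at the region. The 52 therefore cannot tell whether soft replicate 1 could have called a peak here. Soft replicate 2 and stiff replicate 2 had a further H3K4me3 peak (23 and 26 fragments) at chr2:228028269-228028798, under 1 kb away, so the start was without H3K4me3 in soft replicate 1 alone. No p-JUN and no H3K27ac was called at this start. The tall H3K4me3 and H3K27ac peaks in the COL4A3 window were those of the MFF start, and the p-JUN and H3K27ac region in the COL4A4 flank lay in the body of RHBDD1.

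COL8A2, the partner chain of COL8A1, had no H3K4me3, H3K27ac or p-JUN within 1 kb of its start in any list. Its window held H3K4me3 at the start of the neighbouring gene ADPRS, and 2 p-JUN regions called in all 4 libraries upstream of the gene at -8.50 and -9.78 kb, with 62 to 93 and 77 to 85 fragments. H3K27ac was called in its body on soft alone (chr1:36574781-36575068, 26 fragments, 7.77 times the background). At the background of the nearest stiff peak, 41.7 kb away, a peak would have needed 32 fragments, more than soft held. That background was 10.3 fragments, whereas soft had 2.47 at the region itself. The 32 therefore cannot tell whether a stiff peak could have been called there. A single H3K27me3 peak lay near the start in stiff replicate 2 (chr1:36588951-36589750, 3.53 times the background). COL10A1 lies in the same stretch of chromosome 6 as NT5DC1, and every peak of its window, with p-JUN, H3K4me3 and H3K27ac in all lists of those marks, was at the NT5DC1 start. The COL10A1 body had no peak of any mark in any list.

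Over the family, the 40 p-JUN regions common to all 4 libraries were tested, of which 2 were higher and 2 lower on stiff. These are 5.0% in each direction, where 7.97% of all 40433 shared regions were higher and 4.71% lower. The median difference was 0.01 against -0.01 for all regions, and the range was -0.62 to 0.45. For H3K4me3 1 of 12 shared regions was higher and 0 lower (limma; 2 at an unadjusted p under 0.05), where 2.97% of all regions were higher and 1.98% lower. The share of members called is thus near the share of all regions for p-JUN, and 1 region decides it for H3K4me3. With the deposited fold over local background limma called 0 regions of either mark, in these windows and over the whole lists.

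**Figure D5:**
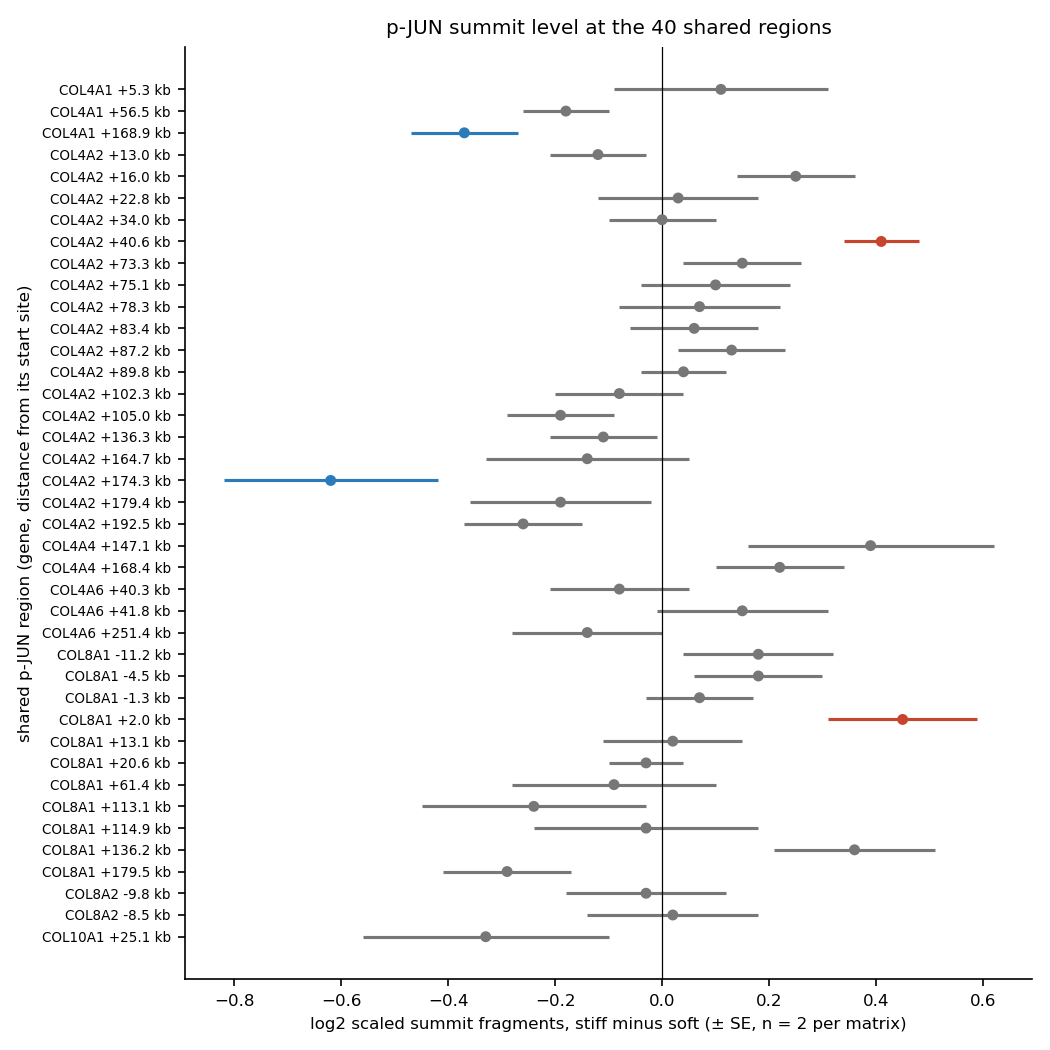
Difference in scaled p-JUN summit level between stiff and soft (log2, point and bar for ± SE, n = 2 per matrix) at the 40 regions called in all 4 libraries, ordered by gene and by distance from its start. The 2 regions higher on stiff by limma are in red (COL4A2 at 40.6 kb and COL8A1 at 2.0 kb), the 2 lower ones in blue, and the others in grey.

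Regions called on one matrix alone were few. For p-JUN 2 of 66 regions in the windows were called on stiff alone (2.75% of all regions) and 0 on soft alone (1.74%). This direction was not stable: with lists of equal length 2 were on each matrix alone, without soft replicate 2 there were 3 on each, and without stiff replicate 2 there were 2 on stiff against 5 on soft. For H3K4me3 2 of 19 were called on stiff alone (1.77% of all) and 0 on soft alone (1.25%). For H3K27ac 0 of 16 were called on stiff alone (10.9% of all) and 3 on soft alone (35.0%), and 13 were called in both lists. With H3K27ac lists of equal length 3 were on stiff alone and 2 on soft alone. For H3K27me3 0 of 8 were called on stiff alone (0.484% of all) and 2 on soft alone (7.54%). H3K27ac lay in both lists over 12 of the 40 shared p-JUN regions, or 30.0%, where 24.0% of all shared p-JUN regions had it.

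The AP-1 letters lay within 50 bp of 30.9% and 28.6% of the p-JUN summits in these windows on soft against 31.9% and 25.0% on stiff. Over all p-JUN peaks the shares were 32.2% and 32.4% on soft against 32.8% and 30.6% on stiff, and 2 kb beside the summits they were 1.80% to 1.86%. Of the 40 shared regions 13 had the motif, and of the 26 called in fewer libraries 1 had it. The same split was not made over all p-JUN regions, so it is not shown to be particular to these windows.

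The 32 genes that build or bind basement membrane beside type IV collagen (laminins, nidogens, HSPG2, AGRN, the collagen hydroxylases and chaperones, peroxidasin and collagen receptors) had H3K4me3 at a start in all 4 libraries for 26, p-JUN for 20, H3K27ac in both lists for 9 and H3K27me3 for 2 (COL15A1 and LAMA1). The network collagens had 5, 1, 0 and 0 of 9. Over all protein-coding genes the shares were 62.8%, 38.2%, 21.2% and 2.43% in the same order. Within 20 kb of the 32 genes 160 shared p-JUN regions were tested, and 11 were higher and 7 lower on stiff, or 6.88% and 4.38%, where 7.97% and 4.71% of all regions were. The largest rise was at PXDN, the peroxidase that crosslinks type IV collagen (0.90 ± 0.20, limma adjusted p = 0.00088). Next came regions of the laminin chains LAMA3 (0.80 ± 0.15, limma adjusted p = 6.24e-05) and LAMC1 (0.80 ± 0.18, limma adjusted p = 0.000752). After these, NID2, a linker of laminin and type IV collagen, had a rise of 0.76 ± 0.10 (limma adjusted p = 1.33e-08). Called regions fell by 0.48 on the log2 scale in the windows of LAMB3, a laminin chain, and SERPINH1, the collagen chaperone (limma adjusted p = 0.000689 and 2.17e-05). Of 59 shared H3K4me3 regions 0 were higher and 1 lower (limma; 12 at an unadjusted p under 0.05), or 0% and 1.69% against 2.97% and 1.98% of all regions. The lower one was near AGRN (-0.49 ± 0.10, limma adjusted p = 0.0141). Regions of this list were assigned by gene body and 20 kb on each side. Whether they lie at a neighbouring gene was not examined.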

How the data were processed

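CUT&Tag peak lists of LX-2 cells were analysed, 14 in all, grouped by the treatment label. Per the study's methods and the submitters' processing notes, the authors used Trim Galore for trimming, Bowtie2 for alignment to hg19 and Picard for duplicates; peak calling was by MACS2, whose options are not given in the sources used here. Narrow peaks were deposited for p-JUN, H3K4me3 and H3K27ac and broad peaks for H3K27me3. Each deposited peak carries a fold, and values given as times the background are this fold. For narrow peaks it is the ratio of summit to local background in that library, with the same small constant added to each. It is thus lower than the plain ratio of the fragments to the background. For the broad H3K27me3 peaks the values are averaged. The deposited −log10 p-value, −log10 q-value and score of each peak come from the peak caller, and the score was not tested. The lists are not scaled to each other.

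From fold and −log10 p the whole fragments at each narrow summit were recovered (relative error under 1e-04 for 100.0% of peaks). Depth of the H3K27me3 libraries is unknown. Peaks of a mark on 24 chromosomes were merged where they shared at least 1 bp. Regions called in all 4 libraries were compared on log2 summit fragments, scaled by median ratios, with limma 3.58.1 in R 4.3.3 (mean-variance trend, Benjamini-Hochberg adjustment over all shared regions, threshold 0.05). Peak numbers were compared by exact permutation tests (scipy 1.17.1). A region was on one matrix alone if called in both libraries of that matrix and in neither of the other. The limma fit and the fragment recovery were tested on simulated data, and merging and overlap on small made-up intervals. The replicate numbers were not taken to pair libraries. The genes, gene lists and tests were chosen with earlier results of these data known. The named regions were, for each gene, the region with the highest level of p-JUN, H3K4me3 or H3K27ac, each region called on one matrix alone and each region past the threshold. For COL4A6 the p-JUN region with the highest fold was added, and for COL8A1 2 p-JUN regions short of the threshold. Alternatives covered the window, the −log10 q minimum, equal list lengths, reciprocal overlap, normalization, the replicate block, the motif distance and leaving out each library.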

Additional observations from a re-analysis of the deposited data

How the results depend on the processing

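Values that changed direction or crossed the threshold, and counts that moved by over 1.5 times, are given here or beside the result, and the cause was not tested. For peak numbers the log2 ratio of stiff to soft ranged, leaving out each library in turn, from -0.15 to 0.21 for p-JUN and from -0.05 to 0.25 for H3K4me3, and with lists of equal length it was -0.03 for p-JUN and 0.12 for H3K27ac. It stayed below 0 for H3K27me3, from -2.17 to -1.0. Regions called on one matrix alone numbered 5 to 9 for p-JUN (5 without soft replicate 1, 4 on stiff and 1 on soft; 9 without stiff replicate 1, 8 on stiff and 1 on soft) and 2 to 5 for H3K27me3 (5 without soft replicate 2) when each library was left out, which leaves a looser definition. With lists of equal length they numbered 4 for p-JUN (2 on each matrix), 1 for H3K4me3, 5 for H3K27ac (3 on stiff, 2 on soft) and 1 for H3K27me3. With a −log10 q of at least 10 there were 1 for H3K4me3 and 7 for H3K27ac (2 on stiff, 5 on soft), and with at least 2 there was 1 for H3K27me3. The limma calls became 0 for p-JUN and 0 for H3K4me3 with the deposited fold, and 0 for H3K4me3 with quantile normalization. Leaving out each library gave 1 to 4 calls for p-JUN (1 without soft replicate 1 or 2) and 0 to 2 for H3K4me3. The difference at the COL4A2 region that starts at 110998897 turned to -0.03 with the deposited fold. Genes with p-JUN at a start numbered 2 within 2 kb and 0 within 500 bp, and the motif share averaged 29.1% within 50 bp and 37.7% within 100 bp.

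Libraries with the same replicate number did not deviate together (correlation of deviations from the matrix means 0.05 with p-JUN, -0.06 with H3K4me3, 0.04 with H3K27me3). This cannot show whether they share a culture or batch, so pairing is unknown. Over all shared regions the replicate block gave 6160 p-JUN calls against 5125 without it, and 516 H3K4me3 calls against 797. With the replicate block the p-JUN calls in the windows stayed at 4 and the H3K4me3 call at 1, and the log2 ratios of peak numbers were 0.03 (p-JUN), 0.10 (H3K4me3) and -1.58 (H3K27me3). No level of H3K27me3 was tested under any setting, as no region of the windows was shared by all 4 libraries. Read totals were not analysed here, and a peak missing from a list is not shown to be absent from the cells.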
